A study of Mus musculus with 12 samples.

Results

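The genes described here are the ribosomal protein pseudogenes of the mouse genome, as listed in RNA sequencing tables of the cerebral cortex. They were chosen by name alone: every gene whose symbol starts with Rpl or Rps and ends in -ps followed by digits was taken. This gave 269 of the 48526 genes listed. Of these, 168 are named after proteins of the large ribosomal subunit (Rpl) and 101 after proteins of the small subunit (Rps). They carry 55 name stems, and the gene of the same stem (the parent) was listed for 268 of them, which gave 54 parent genes. The only stem with no listed parent was Rpl48. In the GENCODE M21 annotation of genome build GRCm38, 256 of the 269 are processed pseudogenes, 6 are transcribed processed pseudogenes and 6 are annotated as protein coding in spite of their names. The remaining gene, Rpl31-ps12, had no location in that annotation.

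The tables cover 12 cortex libraries from C57Bl/6 mice that received no treatment. They fall into 4 groups of 3: transgenic TAU58/2 mice at 10 months, non-transgenic mice at 10 months, and the same 2 genotypes at 3 months, and the replicates are biological according to the design text. TAU58/2 mice express a mutant human tau under the neuronal Thy1 promoter, and non-transgenic mice serve as controls. Each age was deposited as its own table, so age and table cannot be told apart in any comparison between ages.

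Ribosomal proteins are the protein part of the ribosome, and most mammalian ribosomal proteins are made from a single multi-exon gene. Their messenger RNAs are short and abundant, and during evolution many were copied back into DNA and inserted elsewhere in the genome. Such processed pseudogenes have no introns, usually lack the promoter of the parent, and often remain nearly identical to the coding sequence of the parent. A sequencing read from a ribosomal protein messenger RNA that does not cross a splice junction can therefore align to the parent and to its copies. Levels assigned to such copies are uncertain for this reason, and every level below is the level the authors' tables assign to that gene.

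The similarity is shown by a stretch of 100 bases from 4 of the pseudogenes that the results below turn on, each with the matching coding stretch of its parent. Each stretch comes from the GENCODE M21 transcripts, is written 5′ to 3′ in the direction of the RNA, and has capitals only at the bases that differ within the pair. It was chosen as the ungapped stretch of that length with the most differences from the parent, so the differences are a maximum and not typical. Rpl21-ps15 had the highest mean level and differed from Rpl21 at 3 bases of its stretch, which lies at chrX:151215218-151215317 on the minus strand.
Rpl21-ps15: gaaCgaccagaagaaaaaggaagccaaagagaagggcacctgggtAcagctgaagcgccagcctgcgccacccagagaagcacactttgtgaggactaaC
Rpl21: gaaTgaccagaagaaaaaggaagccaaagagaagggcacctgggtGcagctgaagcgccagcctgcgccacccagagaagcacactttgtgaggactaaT
Rpl14-ps1 was the most abundant pseudogene that was above 0 in every library. It differed from Rpl14 at 2 bases of a stretch at chr7:45325288-45325387 on the plus strand.
Rpl14-ps1: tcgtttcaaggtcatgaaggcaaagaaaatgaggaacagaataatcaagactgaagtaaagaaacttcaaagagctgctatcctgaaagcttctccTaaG
Rpl14: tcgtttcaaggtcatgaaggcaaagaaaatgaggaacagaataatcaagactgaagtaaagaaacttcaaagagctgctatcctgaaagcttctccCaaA
Rps19-ps2 had the smallest p-value of all tested pseudogenes in the 10-month genotype comparison. Its stretch at chr14:52903099-52903198 on the plus strand differed from Rps19 at 5 bases, and the same letters stand in its exact copy Rps19-ps1.
Rps19-ps2: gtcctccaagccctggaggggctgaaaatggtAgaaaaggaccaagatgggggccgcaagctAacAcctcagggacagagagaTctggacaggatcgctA
Rps19: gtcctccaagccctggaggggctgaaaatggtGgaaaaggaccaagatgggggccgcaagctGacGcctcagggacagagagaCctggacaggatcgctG
Rpl18-ps2 had the smallest p-value in the comparisons between ages and differed from Rpl18 at 2 bases of a stretch at chr6:128313399-128313498 on the plus strand.
Rpl18-ps2: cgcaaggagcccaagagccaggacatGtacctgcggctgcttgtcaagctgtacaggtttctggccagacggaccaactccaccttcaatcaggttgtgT
Rpl18: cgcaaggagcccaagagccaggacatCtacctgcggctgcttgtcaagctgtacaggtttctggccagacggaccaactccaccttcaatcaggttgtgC

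Levels are given in FPKM, fragments normalised to transcript length and to the size of the library. Total FPKM ran from 125933 to 158077 per library and genes with a value above 0 from 12828 to 13914. The number of reads behind them is unknown. Markers of excitatory neurons, inhibitory neurons, astrocytes, oligodendrocytes, microglia and endothelium were present, and no marker of these lists was at 0 in all 12 libraries. The summed level of 7 pituitary genes was 13473 FPKM in the 10-month transgenic 1 library and at most 53.8 FPKM in the other 11. The summed level of 5 choroid plexus genes was 442 FPKM in the 10-month transgenic 1 library, 305 FPKM in the 3-month transgenic 3 library and 732 FPKM in the 3-month control 1 library, against at most 63.5 FPKM elsewhere. At 3 months the level of Mapt, the tau gene, followed the labels, with 43.3 to 47.6 FPKM in libraries with the transgenic label and 6.64 to 12.0 FPKM in controls. At 10 months it did not: it was 42.6, 12.4 and 3.31 FPKM in libraries with the transgenic label and 42.7, 8.13 and 9.08 FPKM in those labelled control. Thy1 also followed the labels at 3 months, with 410 to 441 FPKM under the transgenic label and 105 to 140 FPKM in controls. At 10 months Thy1 was at 172, 114 and 159 FPKM under the transgenic label and 115, 314 and 176 FPKM in controls. It was highest in 10-month control 2, where Mapt was low, so Mapt and Thy1 did not mark the same libraries. The groups are therefore named by their labels throughout.

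Most ribosomal protein pseudogenes were not detected or were near the lower end of the scale. Of the 269, 109 were listed at 0 in all 12 libraries and 160 were above 0 in at least 1. Of these 160, 34 were above 0 in exactly 1 library and 12 were above 0 in all 12. A level of 1 FPKM was reached in some library by 72, and 10 FPKM by 28. A value above 0 was listed for 95 of the 168 large-subunit copies (56.5%) and for 65 of the 101 small-subunit copies (64.4%). As for all genes, only those whose mean reached 1 FPKM in some group were tested. This left 61 of the 269 pseudogenes (29 large-subunit and 32 small-subunit), where 9846 of all 48526 genes listed were left. The 99 other pseudogenes that were above 0 somewhere were not tested. A gene can pass this filter through a single library, so the tested pseudogenes are not representative of all 269.

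**Figure D1:**
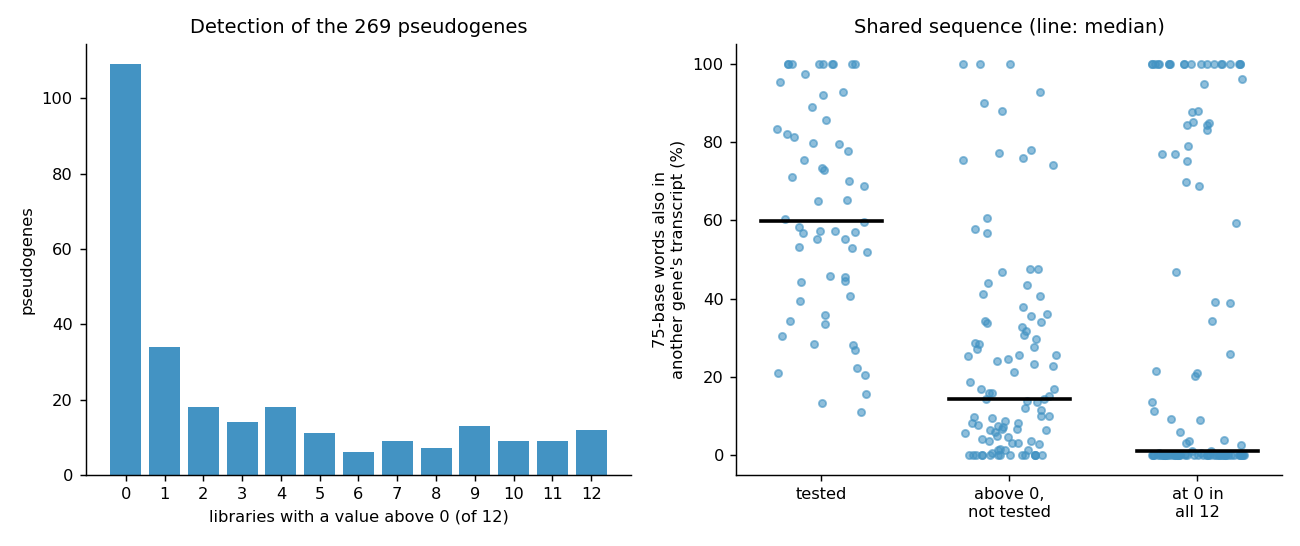
Left: number of ribosomal protein pseudogenes (y axis) by the number of libraries in which they were above 0 (x axis, of 12). Right: percentage of each pseudogene's 75-base words that also occur in the annotated transcripts of another gene (y axis), by detection class, with 1 point per pseudogene and a line at the median. The bar at 0 libraries holds 109 pseudogenes, and the medians are 59.8% for tested pseudogenes, 14.3% for those above 0 but not tested and 1.18% for those at 0 throughout.

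In any library, between 60 and 78 of the 269 pseudogenes were above 0, where 12828 to 13914 of all 48526 genes were. Between 27 and 35 of the pseudogenes reached 1 FPKM and between 10 and 17 reached 10 FPKM. Their summed level ran from 456 FPKM in the 3-month control 2 library to 1087 FPKM in the 10-month transgenic 3 library, or 0.334% to 0.688% of all FPKM. The latter library also had the highest summed level of the 79 cytosolic ribosomal protein genes, 10248 FPKM. Set against those genes, the pseudogenes summed to 7.63% to 12.2% of the ribosomal protein gene level. The 3 highest pseudogenes of a library made up 41.5% to 59.5% of its pseudogene sum.

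The 2 leading pseudogenes are copies of large-subunit genes, and they behaved differently across libraries. Rpl21-ps15 (chrX:151215167-151215649, minus strand) had a mean of 147 FPKM. Its values in replicates 1, 2 and 3 were 184, 173 and 211 FPKM in the 10-month transgenic libraries and 191, 194 and 174 FPKM in the 10-month controls. At 3 months they were 168, 0 and 0 FPKM in the transgenic libraries and 149, 126 and 193 FPKM in the controls. The 10 libraries above 0 thus lay close together, while 2 of the 3 libraries labelled transgenic at 3 months listed the gene at exactly 0. Rpl14-ps1 (chr7:45324965-45325617, plus strand) had a mean of 106 FPKM and no 0. Its values were 117, 85.7 and 167 FPKM and 133, 114 and 83.4 FPKM in the transgenic and control libraries at 10 months. At 3 months the transgenic libraries had 89.0, 103 and 113 FPKM and the controls 96.6, 55.6 and 116 FPKM. The 4 groups overlapped.

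Copies of Rpl17, another large-subunit gene, were the next in level. Rpl17-ps5 was above 0 in all 12 libraries, with a mean of 57.4 FPKM and values from 29.6 to 145 FPKM. Rpl17-ps10 was listed at 134 FPKM in the 3-month transgenic 2 library, at 107 FPKM in the 3-month control 1 library and at 0 in the other 10. Rpl17-ps8 was likewise listed in 2 libraries only, with 45.9 FPKM in 10-month transgenic 3 and 30.4 FPKM in 3-month transgenic 3. No library listed both Rpl17-ps8 and Rpl17-ps10 above 0. Rpl17 itself was at 0 in all 12 libraries. Rpl19-ps11, a copy of Rpl19, was the steadiest of the abundant large-subunit copies, with 13.4 to 28.2 FPKM in the 12 libraries and a mean of 18.02 FPKM.

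Among small-subunit copies, Rpsa-ps2 had the highest mean, 37.3 FPKM, and was at 0 in 3 libraries (10-month control 3 and 3-month controls 2 and 3) and between 22.8 and 88.9 FPKM in the other 9. Rpsa encodes a small-subunit protein that is also known as the laminin receptor. Rpsa-ps9, a second copy of it, was at 0 in the 10-month control 3 library, where Rpsa-ps2 was at 0 too, and between 11.8 and 74.4 FPKM elsewhere. Rps10-ps2 was at 0 in the 10-month transgenic 2, 10-month control 1 and 3-month transgenic 3 libraries and between 33.6 and 72.2 FPKM in the other 9. Rps2-ps13 was at 0 in 5 libraries and between 10.3 and 51.1 FPKM in the other 7. All 3 zeros of Rpsa-ps2 and 4 of the 5 zeros of Rps2-ps13 fell in control libraries. Each gene was above 0 in at least 1 control of each age: Rpsa-ps2 in 10-month controls 1 and 2 and 3-month control 1, and Rps2-ps13 in 10-month control 3 and 3-month control 3. No control listed both above 0. Zeros of other abundant copies fell elsewhere: those of Rpl21-ps15 only in libraries labelled transgenic, and those of Rps10-ps2 under both labels. The genes were set side by side after their values had been seen, and the placement of zeros was not tested.

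**Figure D2:**
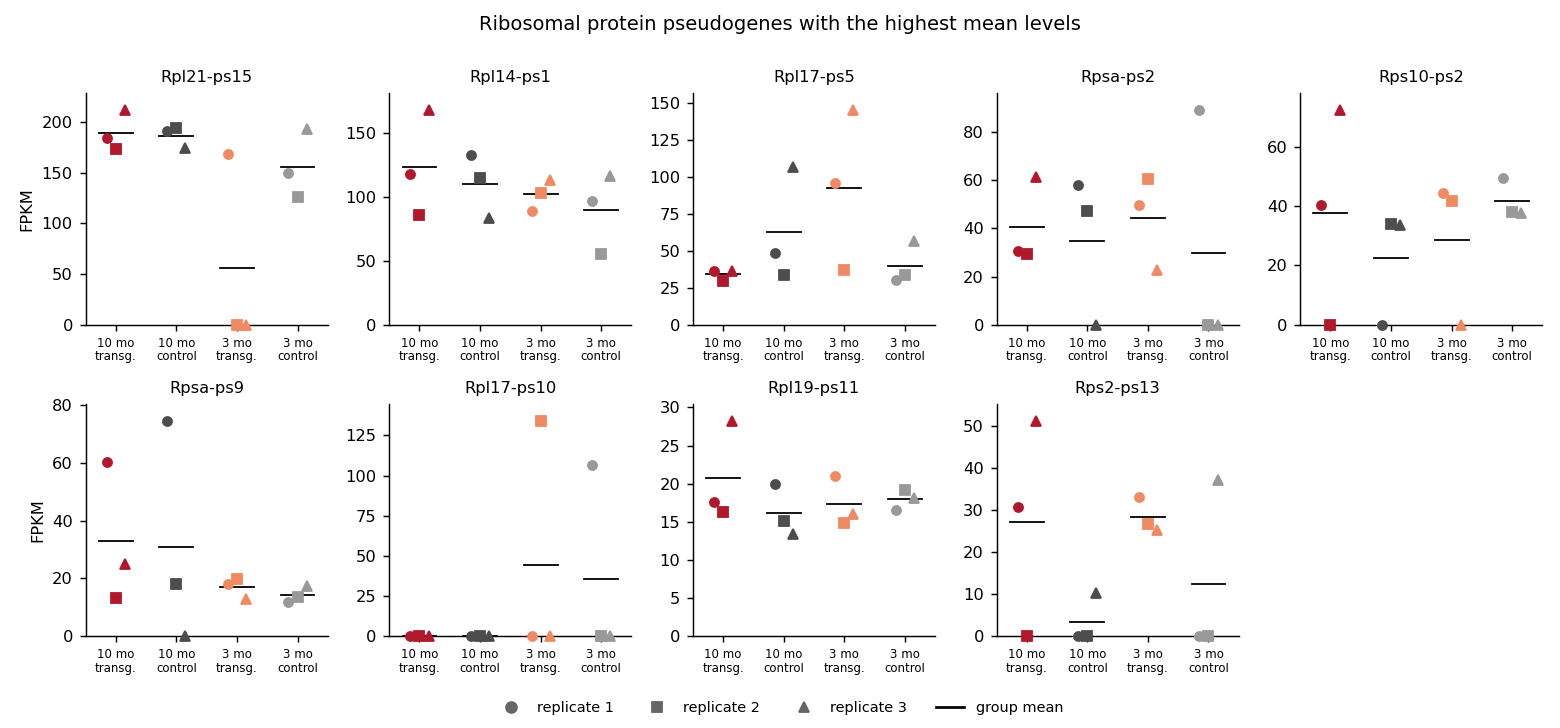
FPKM (y axis, linear, a separate scale per panel) in each of the 12 libraries for pseudogenes among the 10 with the highest means, by group (x axis). Symbols mark replicates and lines mark group means. Rpl14-ps1 and Rpl19-ps11 vary gradually, whereas Rpl21-ps15, Rpsa-ps2, Rps10-ps2 and Rps2-ps13 alternate between 0 and values above 10 FPKM.

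Values that alternate between exactly 0 and a high level were more frequent among the tested pseudogenes than among ribosomal protein genes. A 0 in at least 1 library was listed for 49 of the 61 tested pseudogenes (80.3%), 5 of 74 tested ribosomal protein genes (6.76%) and 2511 of all 9846 genes tested (25.5%). The other genes named as pseudogenes by the same ending, 29 of which were tested, had a similar share (23, or 79.3%). Within a single group of 3 libraries, a 0 stood beside a value of at least 10 FPKM for 22 tested pseudogenes (36.1%), for 3 ribosomal protein genes (4.05%) and for 424 of all genes (4.31%). The other genes with the -ps ending had 7 such cases (24.1%). Pseudogenes are lower than ribosomal protein genes on average. Among genes averaging 10 FPKM or more, 10 of 14 pseudogenes had a 0 in some library. The counts were 4 of 69 for ribosomal protein genes and 181 of 2683 for genes in all (6.75%). Levels were not matched within this cut, and the part of level in the zeros was not tested. Of the other genes with the -ps ending, 1 of 4 at that level had a 0 in some library. These shares are descriptions, and no test was made of them.

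Most pseudogenes lay below their parents. Of the tested pseudogenes, 34 exceeded the parent in no library and 26 in 1 to 11 libraries, and Rpl17-ps5 exceeded it in all 12. The mean over the libraries was above that of the parent for 14, but the median over the libraries for only 7. Rpl21-ps15 was the largest of these by level: its mean of 147 FPKM compares with 16.8 FPKM for Rpl21, and in the 11 libraries in which Rpl21 was above 0 the ratio of pseudogene to parent ran from 0 to 709 with a median of 7.55. Rps24-ps3 (16.3 against 6.22 FPKM) and Rpl30-ps9 (12.3 against 7.74 FPKM) also had the higher mean. Rpl14-ps1, in contrast, kept near its parent throughout, at 0.550 to 1.18 times the level of Rpl14 (mean 124 FPKM).

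Some parents were listed at 0 although they encode core ribosomal proteins. Rpl15, Rpl17, Rpl29 and Rps12 were at 0 in all 12 libraries, and Rpl7a, at a mean of 0.0944 FPKM, was close to it. The 4 parents at 0 have 38 pseudogenes among the 269, of which 7 were tested (3 of Rpl17, 2 of Rpl15 and 2 of Rps12). A value of 0 for genes that every cell uses is reported here only as listed at 0. The copies of Rpl17 had a combined mean of 83.9 FPKM and those of Rpl15 only 2.39 FPKM.

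**Figure D3:**
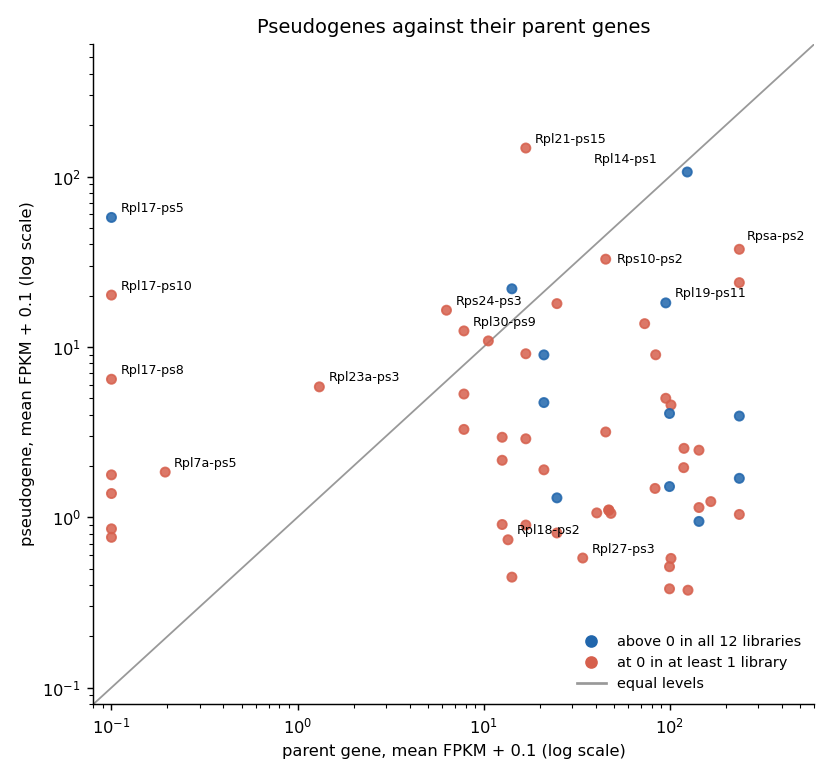
Mean level over 12 libraries of each tested pseudogene with a listed parent (y axis) against the mean of its parent (x axis), both as FPKM + 0.1 on log scales. The line marks equal levels and colours mark whether the pseudogene was above 0 in all 12 libraries. Above the line lie 14 points, and 7 of them stand at the left edge, where the parent was at 0 in every library.

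The tested pseudogenes were also the ones closest in sequence to other transcripts, a property the choice by name did not use. Over the length that could be aligned, the median identity with the coding sequence of the parent was 98.9% for tested pseudogenes, 95.8% for those above 0 but not tested and 92.2% for those at 0 throughout. Each transcript was further split into all its words of 75 bases, and each word was looked up in the annotated transcripts of all other genes. The median share of words found elsewhere was 59.8%, 14.3% and 1.18% in the same order. At least 50% of the words were found elsewhere for 41 of 60 tested pseudogenes with a sequence, and all of them for 9. A high share did not always go with a level above 0, since 20 of the pseudogenes at 0 throughout also had every word elsewhere. Across 268 pseudogenes the Spearman correlation of this share with the number of libraries above 0 was 0.23, and that of identity was 0.33 over 267. These are descriptions across genes that share parents and libraries.

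The reading frame of the parent was often kept. The frame could be read from the start in 54 of the tested pseudogenes, and in 42 of these it ran for at least 95% of the codons of the parent before a stop. Rpl21-ps15, Rpl17-ps5, Rps10-ps2, Rpl19-ps11 and Rps2-ps13 kept all of them, whereas Rpsa-ps9 met a stop after 48 of 295 codons. Among the pseudogenes at 0 throughout, 50 of 86 kept at least 95%.

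Only a few pseudogenes overlapped another annotated gene on their own strand, and the level of that gene was not used in the counts. Of the 268 with a location, 183 overlapped no other annotated gene, 57 overlapped a gene on the opposite strand only and 28 overlapped a gene on the same strand. The counts among tested pseudogenes were 38, 15 and 7 of 60. Rpl21-ps15 lies in an intron of Wnk3 on the opposite strand, and Wnk3, a kinase gene, had a mean of only 0.545 FPKM. Rpl14-ps1 lies in an intron of Trpm4 on the opposite strand, which had a mean of 0.0819 FPKM. The libraries were made with a strand-specific kit per the labels' protocols.

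The levels of Rpl21-ps15 and of the genes that share its sequence were set side by side. The gene shares at least 50% of its 31-base words with 24 other genes, and its words of that length all occur elsewhere. In the 3-month transgenic 3 library, where Rpl21-ps15 was at 0, Gm10155 (77.0% of its words) was at 78.5 FPKM and Rpl21 was at 31.1 FPKM. Gm10155 was otherwise above 0 only in the 10-month transgenic 2 library, at 55.3 FPKM. In the 3-month transgenic 2 library Rpl21-ps15, Rpl21 and Gm10155 were all at 0, and the 25 genes together reached 66.2 FPKM. The same sum was 204 FPKM in 3-month transgenic 3 and 223 to 329 FPKM in the other 10. Added over the copies, the 3-month transgenic 2 library thus stayed far below the rest and 3-month transgenic 3 came close to them.

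**Figure D4:**
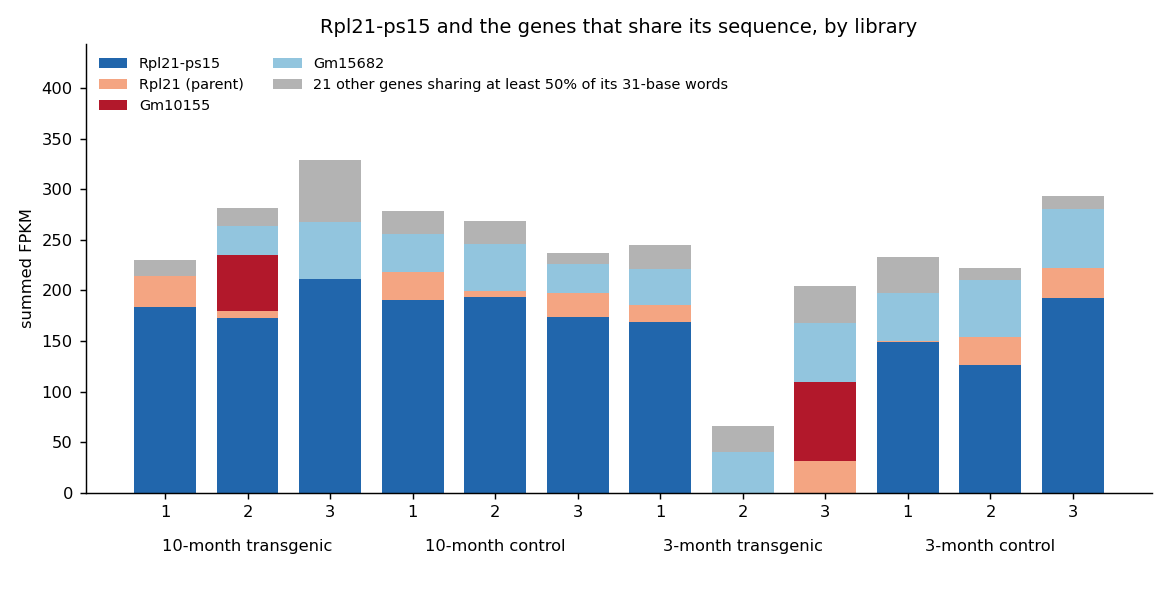
Summed FPKM (y axis) of Rpl21-ps15, its parent Rpl21 and the other genes that share at least 50% of its 31-base words, in each of the 12 libraries (x axis, replicates 1 to 3 per group). Rpl21-ps15 makes up most of every bar except those of 3-month transgenic 2 and 3, and only the former bar, at 66.2 FPKM, is far below the rest.

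The same summing was done for each tested pseudogene that shares at least 50% of its 31-base words with another gene above 0, which held for 53. The coefficient of variation over the 12 libraries was lower for the sum than for the pseudogene alone in 49 of them and higher in 4. The median was 1.23 for the pseudogenes and 0.403 for the sums, with the limit that a sum of several genes varies less than its parts even where the parts are unrelated. A sum did not always level the values: Rpl17-ps5, Rpl17-ps8 and Rpl17-ps10 together still ran from 29.6 FPKM in 10-month transgenic 2 to 175 FPKM in 3-month transgenic 3. Exact copies are the extreme case. There were 6 sets of genes with identical transcripts that held 16 of the pseudogenes, and in 2 of these sets 2 genes were above 0. Rps19-ps1 and Rps19-ps2 are such a pair: both were above 0 in 5 libraries and only 1 of them in 6.

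Whether the pseudogenes differed between libraries labelled transgenic and control was tested with limma on log2(FPKM + 0.1) across all 9846 genes, and Benjamini-Hochberg adjusted p-values below 0.05 were called. At 10 months none of the 61 tested pseudogenes was called, where 0.0102% of all genes (1 gene) were. At an unadjusted p below 0.05 there was 1 pseudogene, against 4.4% of all genes, and 1 pseudogene had groups that did not overlap, against 8.26% of all genes. The fold change was above 0 for 31 pseudogenes and below 0 for 26, with a median of 0.02 on the log2 scale, where that of all genes was 0.01 and that of ribosomal protein genes 0.03. The summed levels of neuron marker genes were set side by side without a test. At 10 months the sum of 4 inhibitory neuron genes was 375 to 527 FPKM under the transgenic label and 58.7 to 361 FPKM in controls. That of 5 excitatory neuron genes was 462 to 563 FPKM against 577 to 656 FPKM, with no overlap in either list. At 3 months the groups overlapped in both lists, and the inhibitory sum ran from 58.7 to 544 FPKM within the transgenic label alone. Only 2 of the 4 inhibitory and 3 of the 5 excitatory genes were above 0 in all 12 libraries. The part of these markers in the results was not tested. When the 10-month transgenic 2, transgenic 3 and control 1 libraries, whose Mapt level went against the label, were left out together, 1 pseudogene was called, Rpsa-ps12. That pseudogene is listed in the 10-month transgenic 1 library alone, at 11.3 FPKM, and the call then compares that single library with the others.

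The 1 pseudogene below an unadjusted 0.05 at 10 months was Rps19-ps2 (chr14:52902793-52903230, plus strand), a copy of Rps19, a small-subunit gene that is mutated in Diamond-Blackfan anaemia. Its values were 2.34, 1.55 and 5.89 FPKM in libraries with the transgenic label and 0, 0 and 1.29 FPKM in the controls, so that the groups did not overlap. The difference was 3.59 ± 0.99 (SE) on the log2 scale, with an adjusted p of 0.969. Its exact copy Rps19-ps1 (chr14:53213730-53214167, plus strand) went the other way in the same libraries, with 0, 0 and 0 FPKM in libraries with the transgenic label and 2.95, 0 and 0.955 FPKM in the controls. Added together, the pair had 2.34, 1.55 and 5.89 FPKM against 2.95, 0 and 2.24 FPKM, and the groups overlapped. The sum was formed after the values had been seen.

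At 3 months none of the 61 tested pseudogenes was called either, against 0.0406% of all genes (4 genes). Unadjusted p-values below 0.05 were found for 3 pseudogenes, where 3.39% of all genes had them, and groups did not overlap for 4, where 7.98% of all genes did not. Rpl27-ps3, a copy of the large-subunit gene Rpl27, was at 0.906, 1.43 and 0.835 FPKM in libraries with the transgenic label and at 0 in the 3 controls. It passed the filter only through the 3-month transgenic group, whose mean was 1.06 FPKM, so a difference from the other groups was favoured by the filter. Its difference of 3.50 ± 1.06 (SE, log2) had an adjusted p of 1, and the size is set by the pseudocount because 1 group was at 0. Its sequence matches the coding sequence of Rpl27 at every base, and Rpl27 was at 26.1 to 34.8 FPKM and 25.6 to 39.3 FPKM in the same groups. At 10 months Rpl27-ps3 was at 0.684, 0.287 and 0 FPKM against 0, 0.295 and 1.28 FPKM.

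Rpl21-ps15 and Rpl9-ps7 differed at 3 months through libraries listed at 0 in the lower group. Rpl21-ps15 was lower in the libraries labelled transgenic by the values above, at -7.01 ± 2.27 (SE, log2) and an adjusted p of 1. Without the 3-month transgenic 1 library, the only one of its group above 0, it was called. Rpl9-ps7, a copy of Rpl9 at chr2:70458982-70459560, was at 9.59, 10.4 and 12.2 FPKM in libraries with the transgenic label and at 0, 0 and 9.77 FPKM in the controls, a difference of 4.54 ± 1.47 (SE, log2) with an adjusted p of 1. It was called only without the 3-month control 3 library, which leaves the control group at 0. Of the 3 pseudogenes whose values were all lower in the libraries labelled transgenic, Rps26-ps1 had 0, 7.70 and 8.66 FPKM against 17.8, 11.7 and 14.0 FPKM. Rpl31-ps12 had no 0 in these libraries, with 0.790, 1.33 and 0.931 FPKM against 5.81, 3.88 and 1.68 FPKM. Rpl21-ps10 had 0.386, 0 and 0.365 FPKM against 1.48, 0.821 and 0.939 FPKM. The fold changes of Rpl21-ps10 and Rpl31-ps12 were -2.02 and -1.66 on the log2 scale, each with an adjusted p of 1.

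The difference between the 10-month and 3-month genotype effects was called for none of the tested pseudogenes, against 0.0508% of all genes (5 genes). Unadjusted p-values below 0.05 were found for 6 of the 61, where 3.32% of all genes had them. These 6 included both Rps19 copies in opposite directions, 3.67 ± 1.41 for Rps19-ps2 and -5.45 ± 1.91 for Rps19-ps1 (SE, log2), each with an adjusted p of 0.987. Rpl7a-ps5, a copy of Rpl7a, was the other leading gene with a positive value: it was listed in 4 libraries only, at 5.43 and 4.86 FPKM in 10-month transgenic 2 and 3 and at 6.15 and 4.45 FPKM in 3-month controls 1 and 3. Rpl3-ps2 had the mirror pattern, with 5.51 and 4.94 FPKM in 10-month controls 1 and 2, 4.83 and 6.98 FPKM in 3-month transgenic 1 and 2, and 0 elsewhere. Its parent Rpl3 was at 72.6 to 193 FPKM in all 12 libraries. Rpl7a-ps5 and Rpl3-ps2 each passed the filter only through the groups in which they were listed, so the filter favoured such a difference.

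**Figure D5:**
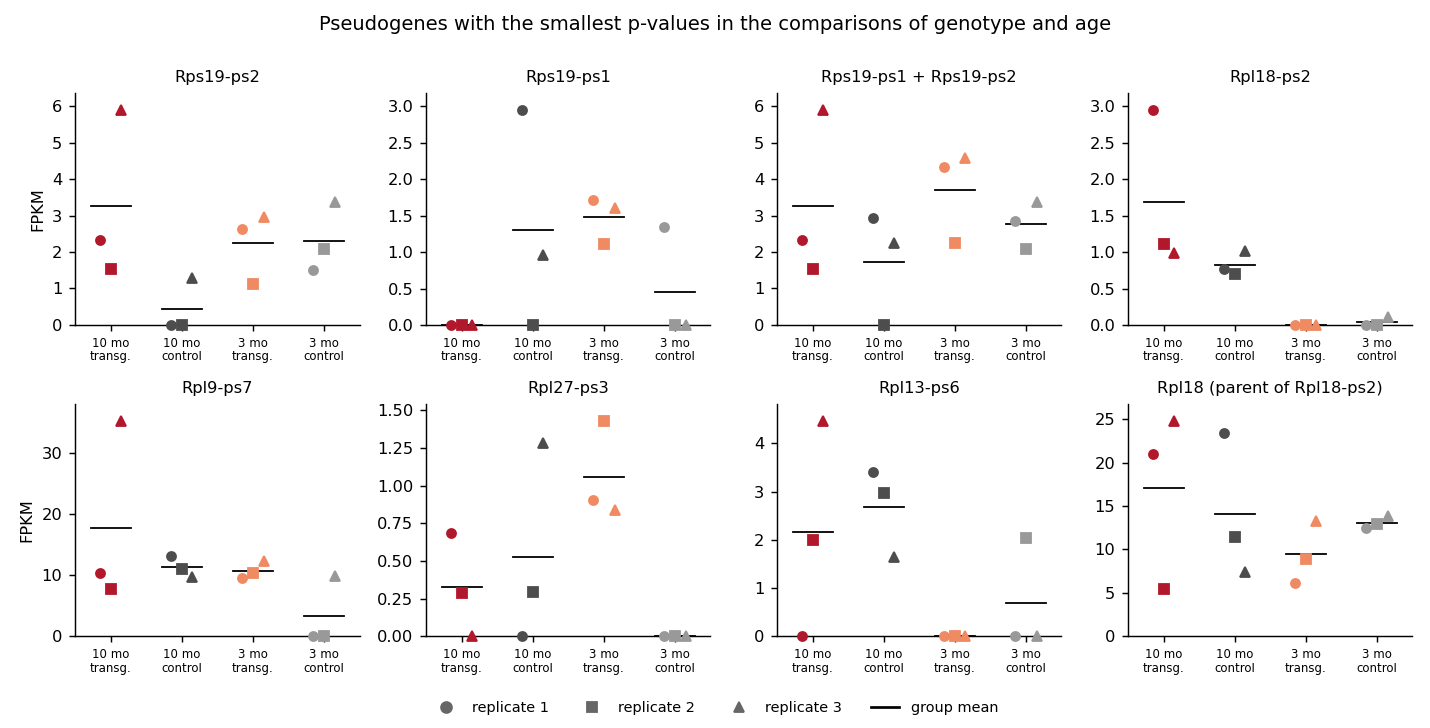
FPKM (y axis, linear, a separate scale per panel) by group (x axis) for pseudogenes with small p-values in the comparisons of genotype and age, the sum of the 2 identical Rps19 copies, and Rpl18, the parent of Rpl18-ps2. Symbols mark replicates and lines mark group means. The 10-month gap in Rps19-ps2 is not present in the sum of both copies, and Rpl18-ps2 is higher in all 6 libraries at 10 months than in any at 3 months.

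Between ages, no pseudogene was called within either genotype label. In controls the background was 0.0305% of genes called (3 genes), with 3 pseudogenes and 4.19% of all genes at an unadjusted p below 0.05. In the libraries labelled transgenic 0.0203% of genes were called (2 genes), with 4 pseudogenes and 4.31% of all genes at an unadjusted p below 0.05. Groups did not overlap for 3 pseudogenes in controls and 7 in the libraries labelled transgenic, against 10.1% and 9.43% of all genes. Rpl18-ps2 (chr6:128313357-128313923, plus strand, in no other annotated gene) was higher at 10 months under both labels. Its values were 2.95, 1.11 and 0.991 FPKM in the 10-month libraries labelled transgenic and 0.770, 0.704 and 1.02 FPKM in the 10-month controls. At 3 months it was listed at 0 in 5 of the 6 libraries and at 0.114 FPKM in 3-month control 3. It passed the filter for testing only through the 10-month transgenic group, with a mean of 1.68 FPKM against 0.830 FPKM in the 10-month controls, so the filter itself favoured a gene that is high at 10 months. The differences were 3.99 ± 0.69 in the libraries labelled transgenic (adjusted p 0.273) and 2.84 ± 0.69 in controls (adjusted p 0.901, both SE, log2).

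Averaged over both labels, a comparison added after the data had been seen, Rpl18-ps2 was the 1 pseudogene called, with 0.0813% of all genes (8 genes) called. The difference was 3.41 ± 0.49 (SE, log2) with an adjusted p of 0.0429, and the 6 libraries at 10 months did not overlap the 6 at 3 months, as for 0.366% of all genes. The call was lost in 16 of 20 alternative analyses, and over all 20 the adjusted p ran from 0.00151 to 0.290. It was lost when any single library except 10-month transgenic 3 was left out. Without the 10-month transgenic 1 library, which had the pituitary genes and the highest Rpl18-ps2 value, the difference was 3.18 with an adjusted p of 0.111. The parent, Rpl18, had 5.44 to 24.8 FPKM at 10 months and 6.17 to 13.9 FPKM at 3 months, so that the ages overlapped. In whole cortex, a change in the number of cells of a type and a change in RNA per cell cannot be told apart.

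Other differences between ages were smaller than the spread, had adjusted p-values above 0.9, or rested on zeros. In the libraries labelled transgenic, Rpl17-ps5 was at 36.6, 29.6 and 36.1 FPKM at 10 months and 95.6, 37.3 and 145 FPKM at 3 months, a difference of -1.24 ± 0.53 (SE, log2) with an adjusted p of 0.974. Rpl13-ps6, a copy of Rpl13, was at 0, 2.00 and 4.46 FPKM and 3.41, 2.97 and 1.64 FPKM in the transgenic and control libraries at 10 months. At 3 months it was at 0 in 5 libraries and at 2.04 FPKM in control 2. Rpl21-ps15 was higher at 10 months in the libraries labelled transgenic, by 7.31 ± 2.27 (SE, log2) with an adjusted p of 0.974, through the 2 zeros at 3 months. In controls, Rps13-ps1, which was above 0 in all 12 libraries, was at 8.57, 3.94 and 3.80 FPKM at 10 months and 7.04, 15.7 and 8.19 FPKM at 3 months, with an adjusted p of 0.994.

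Whether pseudogenes followed their parents across libraries was examined for 36 pairs in which both were tested and the pseudogene was above 0 in at least 6 libraries. Pearson's r on the log2 scale was positive in 24 pairs and negative in 12, with a median of 0.13. By permutation of the libraries (100000 resamples), 2 pairs had an unadjusted p below 0.05 and none passed after Benjamini-Hochberg adjustment over the 36 pairs. Rpl14-ps1 and Rpl14 had the highest r, 0.72 (permutation p = 0.0158, adjusted 0.569), with a Spearman's rho of 0.71. Within ages r was 0.81 at 10 months and 0.63 at 3 months. Without the 2 libraries farthest from the median of Rpl14, r fell to 0.36, so that the relation rests in part on those libraries. Rpl14-ps1 shares 85.4% of its 31-base words with Rpl14, and the part of shared reads in this relation was not tested. Rps19-ps4 had the lowest r with its parent, -0.55 (permutation p = 0.0342, adjusted 0.615), and Rpl27-ps3, identical to the coding sequence of Rpl27, had an r of -0.47. By rank the order differed: Rps26-ps1 and Rps26 had the Spearman's rho farthest from 0, -0.73 (permutation p = 0.0107, adjusted 0.233 over the 36 pairs), with an r of -0.38, and the pair is named after its values were seen. The rho of Rps19-ps4 was -0.46 (permutation p = 0.139, adjusted 0.808).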

How the data were processed

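RNA of 12 mouse cortex samples was sequenced from strand-specific libraries depleted of ribosomal RNA, per the labels' protocols. The authors deposited FPKM per gene and library in a separate table for each age. Per the submitters' processing notes, the tools were HISAT2 2.0.4, StringTie 1.3.0 and R 3.4.2, and the builds mm10 and GRCm38. The sources used here do not say how reads with several equally good positions were assigned. The fold changes (a ratio), log2 values and p-values in the authors' deposited tables were not used. No counts were used, and depth is unknown, so no counting interval is given. No libraries were identical.

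The scale was log2(FPKM + 0.1). The 9846 genes whose mean reached 1 FPKM in some group were fitted with limma 3.58.1 (R 4.3.3; a mean per group, eBayes with trend and robust), with Benjamini-Hochberg adjustment over all of them. Fold changes on this scale understate those of low genes. The fit was tested on simulated normal values with a capped spread. Genes that alternate between 0 and high levels were not imitated, so that test does not cover them. Sequences, positions and overlaps came from the GENCODE annotation of GRCm38; no genome sequence was used, so copies outside annotated transcripts were not searched. Words were compared on the sense strand.

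The genes named are the 10 with the highest means (1 of them is not reported here), the smallest p-values per comparison (in the genotype comparisons only where groups did not overlap), those at 0 in a whole group and above 1 FPKM in a whole other group, and the 3 highest and 3 lowest correlations with a parent. Other genes are named as copies or hosts of these. The pseudogenes, gene lists and rules were chosen with earlier results of these data known.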

Additional observations from a re-analysis of the deposited data

How the results depend on the processing

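The counts of pseudogenes called were recomputed under other pseudocounts (1 and 0.01), filters, scalings and moderation, with each age fitted alone, and without each library. At 10 months the count stayed at 0 in all of these, and it was 1 (Rpsa-ps12) when the 3 libraries whose Mapt level went against the label were left out together, which was chosen after seeing the data and also gave 1 for the age effect in the libraries labelled transgenic. Leaving out each library in turn gave 0 to 1 for the 3-month genotype effect, the interaction and both age effects: Rpl21-ps15 was called without 3-month transgenic 1 (genotype effect, interaction and age effect in transgenic libraries) and Rpl9-ps7 without 3-month control 3 (genotype effect, interaction and age effect in controls). Without trend and robust moderation 1 pseudogene (Rpl18-ps2) was called for age in the libraries labelled transgenic. For the age effect averaged over both labels the 1 call became 0 with a pseudocount of 1 or 0.01, a filter at 5 FPKM (which removes Rpl18-ps2), quantile normalization, the replicate block or the 3 libraries at odds with Mapt left out, and was 0 to 1 without single libraries; the cause was not tested. Over all genes, the calls ran from 0 to 56 at 10 months and from 2 to 12 at 3 months.

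The replicate numbers shared by the labels did not pair the samples: deviations from the group means correlated at -0.12 to 0.09 between libraries of the same number. With the number as a replicate block, 0 pseudogenes were called in every comparison. Of 449 alternative values for 22 pseudogene differences, 430 stayed on the same side of the threshold, 16 lost it (all for Rpl18-ps2), 3 gained it and 0 reversed. Only Rpl18-ps2, averaged over both labels, was called in the main fit, so the other differences could not lose the threshold. The differences were chosen for small p-values, so a reversal was unlikely from the start. In the correlation of pseudogene and parent, 2 pairs (Rpl14-ps1 and Rps19-ps4) passed when deviations from the group means were used in place of values. The permutation treated these deviations as exchangeable, although they sum to 0 within each group. Its p-values can therefore be too small, and no conclusion is drawn from these passes. The number of tested pseudogenes above their parent was 14 by means and 7 by medians, and the median share of sequence found in other genes rose from 59.8% to 83.9% with words of 31 bases. The lack of read counts limits what can be said of values at 0.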
